A study of Mus musculus with 8 samples.

Results

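The comparison of a siPOOL against Tfap4 with a negative control siPOOL was made in mouse embryonic stem cells of the E14 line, derived from the blastocyst of a 129/Ola background. All groups carried a knockout of the microRNA cluster miR-290-295, the most abundant microRNA cluster of such cells, so the controls lacked it too. A siPOOL is a mixture of many small interfering RNAs against 1 transcript. Each was transfected at 5 nM with Lipofectamine RNAiMax, and the cells, grown with serum and LIF on gelatin, were harvested after 36 h. The groups siTfap4 and siNeg held 2 libraries each, 4 of the 8 libraries in the series (siWiz and siZic2 made up the rest). The labels name no untransfected or wild-type group, and the knockdown is by 1 reagent. The design calls the replicates biological duplicates without saying how the cultures were separated, so p-values measure only the spread between these samples. Of the 55421 genes in the deposited table, all 14647 that passed a filter on low counts are described, as functions and families.

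Tfap4 (also called AP-4) is a basic helix-loop-helix leucine zipper protein that binds DNA as a homodimer at E-boxes, with a preference for the letters CAGCTG. In other cell types it is known as a target of Myc, as a repressor of the cell cycle inhibitor Cdkn1a and as a factor of proliferation and of the epithelial to mesenchymal transition. QuantSeq libraries read the 3' ends of polyadenylated transcripts, so counts do not grow with the length of the transcript. Whether copies made by PCR were counted once or repeatedly is not given in the sources used here. Levels are given as CPM, the counts scaled to a fixed library total after TMM scaling, and are comparable between genes as far as length is concerned. In such bulk RNA, fewer cells of a type and less RNA per cell cannot be told apart.

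The 4 libraries held 8326675 and 8829051 counted reads in siTfap4 and 11395211 and 10795092 in siNeg, with 19271 to 21083 genes detected. The cells carried the markers of embryonic stem cells: all 22 listed markers had counts in each of the 4 libraries, at a summed level of 7462 and 7540 CPM in siTfap4 and 7849 and 7887 CPM in siNeg. In this sum both siTfap4 libraries lay under both siNeg libraries. By the test used below, 3 of the 22 markers were higher in siTfap4 and 1 was lower. These are 13.6% and 4.55%, against 4.24% and 11.7% of all genes tested. The 12 fibroblast markers summed to 28.4 to 34.1 CPM, and Col3a1, Lum, Postn and Twist2 were at 0 counts in all 4. Markers of mesoderm summed to 11.03 to 13.6 CPM, of neural cells to 74.4 to 105 CPM, of trophectoderm to 190 to 307 CPM and of primitive endoderm to 632 to 857 CPM, and the 2 groups overlapped in each of these lists.

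Tfap4 itself (ENSMUSG00000005718; GRCm38 chromosome 16, 4544661 to 4559854, minus strand) was at 12.03 and 15.71 CPM in the siTfap4 libraries and at 33.4 and 37.1 CPM in the siNeg libraries. The siWiz and siZic2 libraries held 28.6 to 33.0 CPM, so the 2 siTfap4 libraries were the lowest of the 8. The fall left 39.4% of the control level (log2 difference -1.34, SE 0.25, adjusted p = 0.00417 by edgeR's quasi-likelihood test, adjusted by Benjamini-Hochberg over all genes tested). The log2 difference lay between -1.56 and -1.17 when each of the 8 libraries was left out in turn, with a highest adjusted p of 0.0429 without siTfap4 replicate 1.

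Across all genes 1709 fell in siTfap4 (11.7% of those tested) and 621 rose (4.24%), where rose and fell mean an adjusted p under 0.05. The median log2 difference over all genes was 0.01. Falls were also the larger changes: of the falls, 228 were 1.5-fold to 2-fold, 943 were 2-fold to 4-fold and the others larger, while 290 of the rises were 1.5-fold to 2-fold and 307 were 2-fold to 4-fold. The number of calls depended on which library was left out. Without siTfap4 replicate 1 there were 498 falls and 6 rises, and without siTfap4 replicate 2 there were 2179 and 1143. Leaving out siNeg replicate 1 gave 702 falls and 55 rises, against 1476 and 431 without siNeg replicate 2, and leaving out a siZic2 library gave 301 and 302 rises. Of the falls, 84.0% had the lower of their 2 siTfap4 values in replicate 1, and of the rises, 93.1% had the higher one there.

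**Figure D1:**
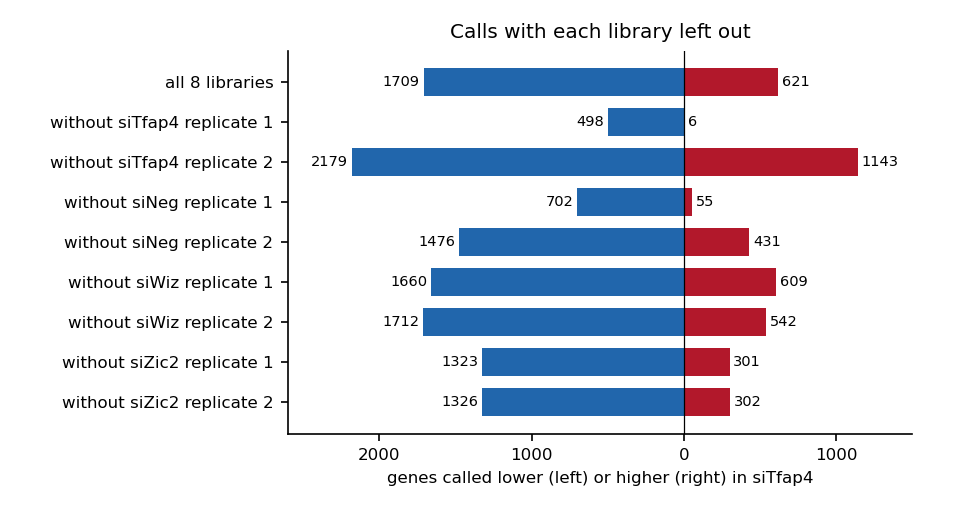
Number of genes called lower (blue, left) and higher (red, right) in siTfap4 than in siNeg at an adjusted p under 0.05, with all 8 libraries in the fit and with each library left out in turn. The 621 rises went down to 6 without siTfap4 replicate 1 and to 55 without siNeg replicate 1, and the 1709 falls to 498 and 702.

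A narrower set is therefore given for many of the counts. A change is called steady here when it passed the test in the fit of all libraries and in each of the 8 fits with 1 library left out, kept its log2 difference within 1.5 times in each, and had CPM ranges of siTfap4 and siNeg that did not overlap. There were 400 steady falls (2.73% of genes tested) and 5 steady rises (0.0341%). The 400 steady falls had a median of 4.76-fold and a median siNeg level of 48.9 CPM, and 385 of them were protein-coding. In all 400 both siTfap4 libraries lay under each of the other 6 libraries of the series. Lying under the siNeg libraries was required by the definition of steady. How many of all genes lay under all 6 was not counted. Ranges that did not overlap were common among all genes: in 29.6% of all genes tested both siTfap4 libraries were above both siNeg libraries, and in 29.5% they were below.

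The 2 sides agreed more in direction than in size. Among 10075 genes with a mean of at least 5 CPM, 1886 were at least 2-fold lower in siTfap4 replicate 1 than in siNeg replicate 1 (the first pair), on the scale of log2 CPM with a prior count of 2. Of these, 96.2% were also lower in the second pair (siTfap4 replicate 2 against siNeg replicate 2), and 38.8% by 2-fold or more, against 49.5% and 7.59% of all 10075 genes. Of the 1211 genes at least 2-fold higher in the first pair, 93.5% were higher in the second pair and 6.28% were so by 2-fold, against 50.5% and 1.55% of all. In the opposite direction, 765 genes were at least 2-fold lower in the second pair, and 95.6% of these were at least 2-fold lower in the first, against 18.7% of all. The replicate numbers are not stated to pair the libraries, and with the pairs crossed, 88.1% of 1725 genes that were 2-fold lower in siTfap4 replicate 1 against siNeg replicate 2 were lower in the other pair, against 48.1% of all. The replicates of siTfap4 differed by a median of 0.33 on the log2 scale and those of siNeg by 0.31, against 0.25 in siWiz and 0.21 in siZic2.

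**Figure D2:**
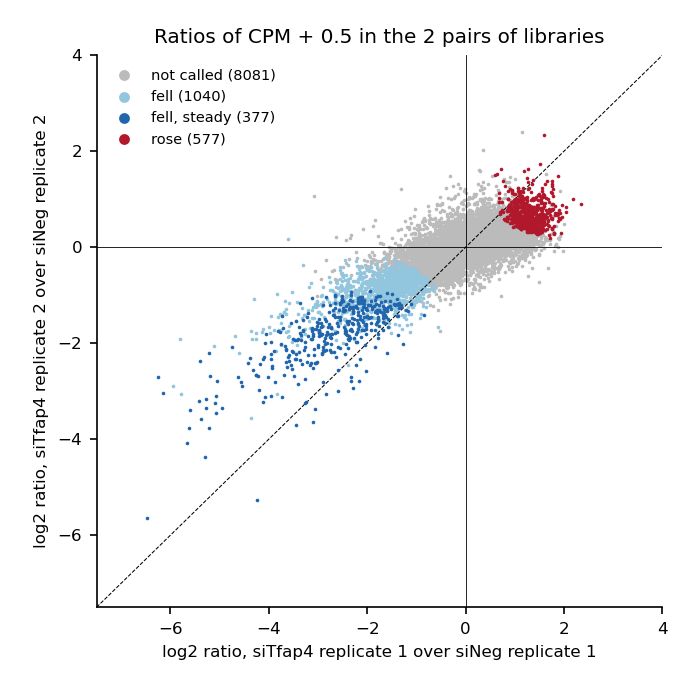
Log2 ratio of siTfap4 to siNeg (CPM + 0.5) in replicate 1 (horizontal axis) and replicate 2 (vertical axis) for 10075 genes with a mean of at least 5 CPM, 1 point per gene, with the line of equal ratios dashed. Falls (pale blue), steady falls (dark blue) and rises (red) lie mostly on the same side of 0 in both pairs, with larger ratios in the first pair.

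Promoter windows were searched for the letters Tfap4 prefers. The windows of RefSeq (GRCm38.p6) run from 250 bases before to 50 bases after an annotated start. The letters CAGCTG, which read the same on both strands, were in 16.3% of all 32851 windows. Of 10277 tested genes matched to a window, 18.1% held them, against 15.1% of 1290 genes that fell, 21.6% of 459 that rose and 18.3% of 8528 that did not pass the test. Among 321 steady falls the share was 13.1%. The letters CACGTG, another E-box, were in 12.8% of genes that fell, 13.9% of those that rose, 11.5% of those not called and 9.97% of the steady falls. The 4 windows shown belong to protein-coding steady falls that held CAGCTG, which is in capitals. They were taken by smallest p from a restricted set of genes, so steady falls outside that set may hold the letters with a smaller p. A match is a description of letters and says nothing about binding.
Tcf7 (chr11:52282965-52283264, minus strand): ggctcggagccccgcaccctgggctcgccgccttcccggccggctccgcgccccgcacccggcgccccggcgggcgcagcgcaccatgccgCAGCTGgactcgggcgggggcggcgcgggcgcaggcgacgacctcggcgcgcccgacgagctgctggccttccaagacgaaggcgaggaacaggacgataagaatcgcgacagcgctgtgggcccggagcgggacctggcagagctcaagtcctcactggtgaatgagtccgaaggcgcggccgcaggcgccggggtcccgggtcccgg
Commd1 (chr11:22972817-22973116, minus strand): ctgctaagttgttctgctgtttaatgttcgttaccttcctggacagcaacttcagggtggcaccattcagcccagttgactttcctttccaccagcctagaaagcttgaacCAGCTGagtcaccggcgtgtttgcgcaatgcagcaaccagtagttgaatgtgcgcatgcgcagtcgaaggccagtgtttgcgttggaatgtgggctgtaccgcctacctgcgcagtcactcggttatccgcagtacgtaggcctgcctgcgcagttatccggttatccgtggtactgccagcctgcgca
Cbx7 (chr15:79932597-79932896, minus strand): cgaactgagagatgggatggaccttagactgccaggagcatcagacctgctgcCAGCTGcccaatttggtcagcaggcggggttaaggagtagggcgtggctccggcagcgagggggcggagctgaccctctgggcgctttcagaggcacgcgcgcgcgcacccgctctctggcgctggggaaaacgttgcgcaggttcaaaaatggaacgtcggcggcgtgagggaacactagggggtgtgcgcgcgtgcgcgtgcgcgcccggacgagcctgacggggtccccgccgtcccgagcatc
Hax1 (chr3:89998054-89998353, minus strand): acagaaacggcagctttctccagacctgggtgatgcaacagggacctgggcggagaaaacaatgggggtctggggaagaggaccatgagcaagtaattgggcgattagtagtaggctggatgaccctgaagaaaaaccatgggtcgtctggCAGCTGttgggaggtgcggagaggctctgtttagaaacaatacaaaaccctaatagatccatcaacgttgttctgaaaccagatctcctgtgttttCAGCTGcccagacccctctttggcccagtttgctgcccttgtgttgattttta

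Some genes have several annotated starts, and a gene counts as holding the letters when any of its windows does. The first match stands 159 bases before the start site in Tcf7, 139 before it in Commd1 and 197 before it in Cbx7, and in Hax1 the pair of matches stands 99 and 3 bases before it. Only in Tcf7, among these 4, is the start of the window that of the whole gene in GENCODE M21. The starts used lie 9516 bases inside Commd1, 38473 inside Cbx7 and 677 inside Hax1, so those windows are at inner starts. In Tcf7 the letters follow 6 bases after the first base of an ATG, in frame and with no stop codon up to the end of the window, while GENCODE M21 has no exon there. The second match in Hax1 overlaps an annotated coding exon. Tcf7 (chromosome 11, 52252371 to 52283014), a nuclear effector of Wnt signalling, held 1.61 and 1.64 CPM in siTfap4 and 19.4 CPM in both siNeg libraries (11.8-fold lower, adjusted p = 0.000415). Commd1 (chromosome 11, 22896136 to 22982382), a regulator of copper handling and of NF-kappaB turnover, held 1.74 and 3.05 CPM against 35.7 and 22.6 CPM. Hax1 (chromosome 3, 89995446 to 89998780), a mitochondrial protein that protects from apoptosis, held 1.36 and 1.52 CPM against 15.5 and 24.7 CPM. Ranges of siTfap4 and siNeg that do not overlap were part of the choice of these steady genes, and Cbx7 is given with the Polycomb genes.

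The gene lists, 90 in all, covered 3526 of the tested genes, and 157 of the 400 steady falls lay in them. At least 1 member fell in 85 lists and at least 1 rose in 70, and 65 lists held a steady fall. Falls outnumbered rises in 75 lists and rises outnumbered falls in 6, and of 86 lists with at least 10 tested members 63 had a larger share of falls than all genes, so neither sets a list apart. For each list the share that fell or rose is to be read against 11.7% and 4.24% of all genes, and the steady falls against 2.73%. List counts moved with the libraries as the totals did. Replicate 1 of a group is called its first library from here on, and a count without either first library is 1 that was the same with the first siTfap4 or the first siNeg library left out. Without the first siTfap4 library the number of falls was smaller by over 1.5 times in 76 of 85 lists and the number of rises was 0 in 65 of 70. Without the first siNeg library these were 67 of 85 and 53 of 70, and a siZic2 library left out lowered the rises by over 1.5 times in 45 of 70. Counts without a library are given beside many lists where the falls moved by over 1.5 times, but not for every library that moved them. For some lists they are also given where the falls did not move so far. The median of 41 of the 90 lists changed sign in at least 1 fit with a library left out, so a list's median is given as a value and not as a direction.

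**Figure D3:**
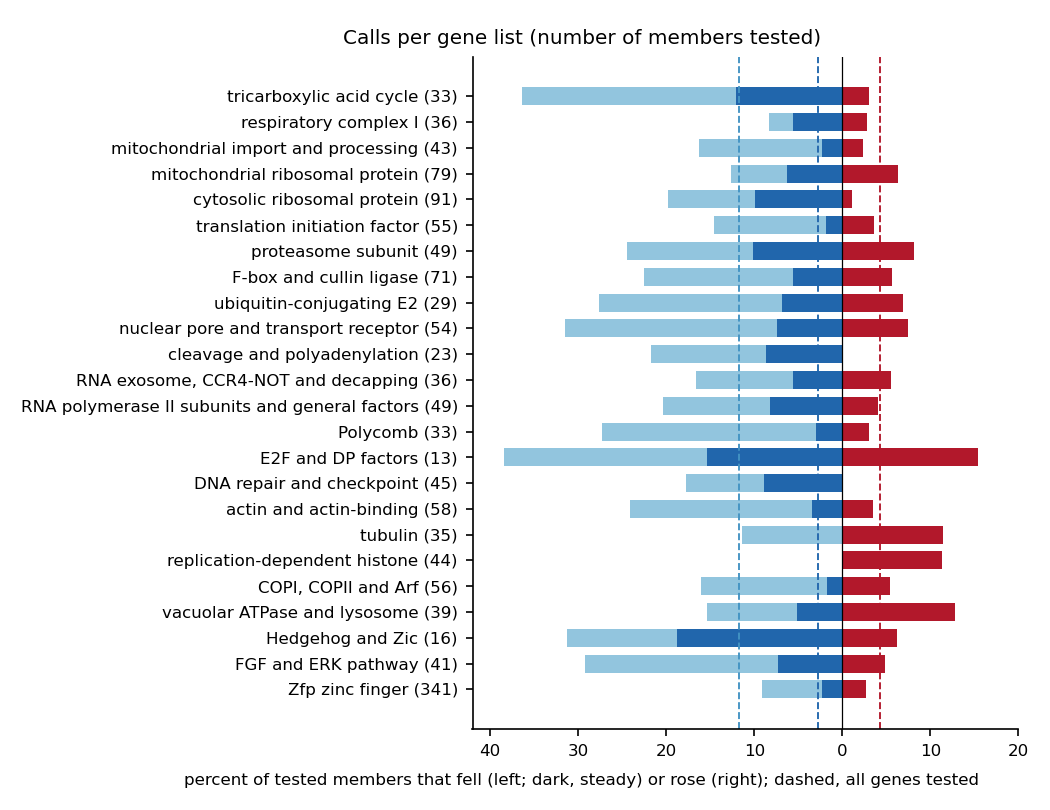
Percent of the tested members of the lists named on the vertical axis that fell (pale and dark blue, left; the dark part is steady falls) or rose (red, right) in siTfap4, with the number tested in brackets. Dashed lines give the shares over all 14647 genes: 11.7% fell, 2.73% fell steadily and 4.24% rose.

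Mitochondrial genes changed unevenly. The tricarboxylic acid cycle oxidises acetyl groups in the mitochondrial matrix, and of its 33 tested genes 12 fell and 1 rose, with a median log2 difference of -0.48 against 0.01 over all genes. Of the falls, 4 were steady, and the count of falls was 5 without the first siTfap4 library and 5 without the first siNeg library, with no rise in either fit. Fumarate hydratase, Fh1 (chromosome 1, 175600374 to 175625635), held 4.84 and 11.4 CPM in siTfap4 and 99.3 and 75.7 CPM in siNeg (log2 -3.43, SE 0.40, adjusted p = 0.000415). Suclg2, the GTP-forming succinyl-CoA ligase subunit, held 1.61 and 2.11 CPM against 17.5 and 11.8 CPM. Sdhc, a membrane anchor of succinate dehydrogenase that serves both the cycle and the respiratory chain, held 22.9 and 48.1 CPM against 142 and 165 CPM. Glud1, the glutamate dehydrogenase that feeds the cycle, was the fourth, at 147 and 222 CPM against 446 and 553 CPM (2.71-fold lower). Ranges apart are part of the definition of steady. In all 4 the lower siTfap4 value was in replicate 1, as it was in 352 of the 400 steady falls.

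In the respiratory chain, of 36 complex I genes 3 fell, 2 of them steady, and 1 rose. Those of complexes II to IV had 5 falls, 3 of them steady, and 3 rises in 33, and 4 of 19 ATP synthase genes fell, 2 of them steady. The medians of these 3 lists (0.19, 0.15 and -0.07) depended on the control libraries. They were -0.06, 0.04 and -0.18 without the first siNeg library and 0.50, 0.44 and 0.23 without the second. Single subunits did fall far. Ndufb3 and Ndufa1, accessory subunits of complex I, were 7.09-fold and 5.31-fold lower. Uqcrfs1, the Rieske iron-sulfur protein of complex III, was 3.24-fold lower. Atp5j, a subunit of the ATP synthase stalk, held 11.7 and 36.5 CPM in siTfap4 and 153 and 192 CPM in siNeg, and Atp5s was at 0.62 and 0.94 CPM against 7.07 and 4.80 CPM. Cox7c was 20.3-fold lower, but its transcript end is shared with other genes. Cox17, the copper chaperone of cytochrome c oxidase (chromosome 16, 38346991 to 38352763), stood outside these lists and had the smallest adjusted p of the falls described here, together with Sem1 and Zfp988: 2.11 and 4.81 CPM against 86.8 and 58.0 CPM (log2 -4.38, SE 0.45, adjusted p = 0.000414). Falls of complexes II to IV and of ATP synthase were 3 and 2 without the first siTfap4 library. Without the second siTfap4 library the falls were 8 for complex I and 9 for complexes II to IV. Falls of complexes II to IV were 3 without the first siNeg library, and those of ATP synthase 2 without the second siNeg library. Rises of these lists were 0 without either first library.

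Falls took 16.3% of the genes for mitochondrial import and processing and 12.7% of the mitochondrial ribosomal protein genes, against 11.7% of all genes. Steady falls were 2.33% and 6.33% of these lists, against 2.73% of all genes. Of 43 genes for protein import and processing 7 fell and 1 rose (median -0.27). These were 3 and 0 without the first siTfap4 library, 5 and 0 without the first siNeg library, 4 falls without the second siNeg library and 14 without the second siTfap4 library. The steady one was Pmpcb, the catalytic subunit of the peptidase that removes targeting sequences, at 0.87 and 2.23 CPM in siTfap4 and 96.02 and 21.8 CPM in siNeg, where the control libraries themselves lay far apart. Of 79 mitochondrial ribosomal protein genes 10 fell and 5 rose (median 0.15), 5 of the falls steady, and the falls were 5 without the first siTfap4 library and 6 without the first siNeg library, with no rise in either. Mrps21 fell 18.4-fold (0.62 and 1.06 CPM against 11.7 and 19.7 CPM), Mrpl39 5.31-fold and Mrpl44 3.66-fold. Of 21 transcripts encoded in mitochondrial DNA 1 fell and 1 rose (median 0.46). The fall was mt-Cytb, cytochrome b, at 2118 and 4976 CPM against 10945 and 9910 CPM (adjusted p = 0.0111, and 0.0970 without the first siTfap4 library). Slc25a5, an ADP/ATP exchanger of the inner membrane, held 59.4 and 105 CPM against 460 and 333 CPM.

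In other metabolism, 35 genes of glycolysis and the hypoxia response had 3 falls and 5 rises (median 0.31), and no rise was called without the first siTfap4 library, 2 without the first siNeg library, 11 without the second siTfap4 library and 1 without the second siNeg library. The falls (6 without the second siTfap4 library) included the glucose transporter Slc2a1, at 168 and 161 CPM against 438 and 372 CPM, a steady change of 2.46-fold. Gapdh was 7.42-fold lower, with an uncertain transcript end. Of 40 genes for serine, one-carbon and nucleotide synthesis 6 fell and none rose, 3 without the first siTfap4 library and 11 without the second siTfap4 library. Phgdh, the first enzyme of serine synthesis, held 8.31 and 15.7 CPM against 52.7 and 94.4 CPM. Rrm2, the ribonucleotide reductase subunit that rises in S phase, held 30.9 and 71.0 CPM against 204 and 189 CPM. Among genes of redox control 11 of 66 fell and 2 rose, with 5 falls without the first siTfap4 library and 6 without the first siNeg library. Txn1, thioredoxin, held 65.7 and 155 CPM against 651 and 446 CPM, and the mitochondrial peroxiredoxin Prdx3 was 4.75-fold lower. Srebf1, a helix-loop-helix activator of lipid synthesis, was 13.97-fold lower. It is itself a member of the list for cholesterol synthesis, in which 4 of 33 genes fell and 2 rose (median 0.06). That list had fewer falls without the first siTfap4 library or the first siNeg library.

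Among genes of protein turnover, falls took 24.5% of the proteasome list, 27.6% of the ubiquitin-conjugating enzymes and 22.5% of the F-box and cullin genes but 8.065% of the deubiquitinases. Of 49 proteasome genes 12 fell and 4 rose, 5 of the falls steady. The median was -0.15, and was 0.10 without the first siTfap4 library and 0.19 without the second siNeg library. Falls were 6 without the first siTfap4 library, 7 without siZic2 replicate 1 and 8 without the first siNeg library, with 0 rises in the first of these and 1 in the last. Outside that list of symbols, Sem1 (chromosome 6, 6557294 to 6578663), a small subunit of the proteasome lid that also binds Brca2, held 9.18 and 18.9 CPM in siTfap4 and 178 and 153 CPM in siNeg (log2 -3.56, SE 0.38, adjusted p = 0.000414). Psmg1, an assembly chaperone of the proteasome core, held 4.84 and 11.96 CPM against 48.5 and 44.6 CPM. Psmd14, the deubiquitinase of the lid, held 44.9 and 61.7 CPM against 183 and 188 CPM, and Psma5, with an uncertain end, was 7.22-fold lower. The siNeg values of Psmd14 and Psmg1 nearly coincided, and in all 4 of these genes the first siTfap4 library was the lower.

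Of 29 genes of ubiquitin-conjugating enzymes 8 fell and 2 rose, and the falls were 2 without the first siTfap4 library, 3 without the first siNeg library and 5 without either siZic2 library. The steady falls were Ube2g2 (5.91-fold), which acts in the disposal of proteins from the endoplasmic reticulum, and its relative Ube2g1 (3.23-fold). Syvn1, the ligase of the same pathway, was 14.9-fold lower, at 1.24 and 1.17 CPM against 24.9 and 11.2 CPM. Of 71 F-box and cullin genes, which build the substrate-binding part of ubiquitin ligases, 16 fell, 4 of them steady, and 4 rose (median -0.29), with 5 falls and no rise without the first siTfap4 library and 6 and 0 without the first siNeg library. Fbxl14, which directs Snail proteins to degradation, held 0.50 and 0.70 CPM against 30.3 and 11.7 CPM (34.3-fold lower). Fbxl12 was 6.64-fold and Fbxo45 3.17-fold lower. Deubiquitinases had 5 falls and 4 rises in 62 (median 0.07), 2 falls without either first library, and Uchl3 steady at 21.8 and 34.4 CPM against 130 and 149 CPM. Of 86 chaperone genes 12 fell and 3 rose (median 0.04), 6 falls steady, and falls were 6 without the first siTfap4 library and 7 without the first siNeg library. Dnaja3, a mitochondrial DnaJ protein, held 11.7 and 18.9 CPM against 63.9 and 68.2 CPM. Hspb11, in the list by its symbol and not by a known chaperone role, was 19.1-fold lower. Dnajc6, which acts in the uncoating of clathrin vesicles, was 5.23-fold lower.

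Stress response genes went both ways. Of 38 genes of the integrated stress response and the unfolded protein response 7 rose and 5 fell (median -0.03), and none of the rises was called without the first siTfap4 library or without the first siNeg library, while 4 falls were. Rises were 3 without the second siNeg library and 4 without either siWiz library. The 4 steady falls included Syvn1, Manf, a secreted protein of the stressed endoplasmic reticulum (14.3 and 35.8 CPM against 117 and 102 CPM), and Ppp1r15b, a regulatory subunit that returns eIF2alpha to its unphosphorylated state. Ppp1r15b held 70.7 and 73.98 CPM against 221 and 161 CPM.

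In protein synthesis, 18 of 91 cytosolic ribosomal protein genes fell, 9 of them steady, and 1 rose (median -0.33), but the transcript ends of 41 members are uncertain (largely shared with another gene). Falls were 11 without the first siTfap4 library and 28 without the second siTfap4 library. The steady members named here have ends under the limit for uncertain, with 12.4% of the end shared with other genes in Rps23 and 32.7% in Rpl34. They were Rps23 (55.5 and 65.9 CPM against 464 and 688 CPM, 9.48-fold) and Rpl34 (27.0 and 32.8 CPM against 165 and 264 CPM, 7.16-fold). Both had siTfap4 values close to each other. The median of the list was 0.15 without the second siNeg library, so no direction is given for the family. Of 55 initiation factors 8 fell and 2 rose (median -0.08), with 2 falls without the first siTfap4 library, 3 without the first siNeg library and 14 without the second siTfap4 library, and of 40 aminoacyl-tRNA synthetases 4 fell and 2 rose (median 0.18), with 0 falls without the first siTfap4 library, 1 without the first siNeg library and 2 without either siZic2 library. Of 44 ribosome biogenesis genes 5 fell and 2 rose, with 3 falls without the first siTfap4 library. Gar1, a component of the particles that form pseudouridine in ribosomal RNA, held 6.45 and 21.6 CPM against 145 and 108 CPM. Nob1, the nuclease that trims the 18S precursor, was 5.17-fold and Ebna1bp2 3.11-fold lower.

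One elongation factor went the other way. Eef1a1 (chromosome 9, 78478449 to 78489151), which brings aminoacyl-tRNA to the ribosome, rose from 151 and 141 CPM to 417 and 300 CPM (2.46-fold, log2 1.30, SE 0.24, adjusted p = 0.00360), and its call held with each library left out (highest adjusted p 0.0320). It was 1 of 18 factors of elongation and termination, of which 3 others fell, with 0 falls without the first siTfap4 library and 1 without the first siNeg library.

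In RNA production, of 49 genes of RNA polymerase II and its general factors 10 fell and 2 rose (median -0.16), 4 falls steady, with 4 falls without the first siTfap4 library and 6 without the first siNeg library. Gtf2h3, a core subunit of TFIIH, held 3.10 and 4.92 CPM in siTfap4 and 41.5 and 29.2 CPM in siNeg (8.77-fold). Polr2h, a subunit shared by the nuclear RNA polymerases, was 6.09-fold lower, and Gtf2b, which places the polymerase at the start site, 4.90-fold. Of 32 Mediator subunit genes 7 fell and 1 rose, but none fell without the first siTfap4 library or without the first siNeg library. The smallest p there was that of Cdk8, the kinase of Mediator, at 5.58 and 5.28 CPM against 18.8 and 16.1 CPM (adjusted p = 0.00911, 0.0633 without the first siTfap4 library and 0.0545 without the first siNeg library).

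In cleavage and polyadenylation, the step that makes the 3' ends these libraries read, 5 of 23 genes fell and none rose (median -0.24). Falls were 2 without the first siTfap4 library, 2 without the first siNeg library and 8 without the second siTfap4 library. The steady ones were Nudt21, the subunit of cleavage factor I that binds upstream of the cleavage site and is known to shift the choice of site when lowered, at 4.59 and 7.15 CPM against 39.99 and 31.6 CPM, and Cstf2t, a paralog of the factor that binds downstream of it, at 3.97 and 8.44 CPM against 45.1 and 33.7 CPM. Use of other cleavage sites was not tested. Of 36 genes of RNA decay 6 fell and 2 rose (median -0.32), with 2 falls without either first library and 14 without the second siTfap4 library. Pan2, a nuclease that shortens poly(A) tails, was 10.2-fold lower (3.348 and 3.4001 CPM against 47.3 and 21.4 CPM) and Cnot8, another deadenylase, 3.01-fold lower.

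Among splicing genes the abundant regulators Hnrnpl and Srsf1 fell. Of 29 hnRNP genes 5 fell and 1 rose (median -0.30), with 2 falls without either first library, 3 without either siZic2 library and 8 without the second siTfap4 library. Hnrnpl (chromosome 7, 28808541 to 28822266), which regulates splicing at CA repeats, held 64.1 and 73.6 CPM against 164 and 165 CPM. This was a modest and closely replicated fall of 2.39-fold (log2 -1.25, SE 0.21, adjusted p = 0.00260). Of 20 SR protein genes 3 fell and 1 rose, with 1 fall without either first library and 5 without the second siTfap4 library, and Srsf1 held 125 and 152 CPM against 514 and 363 CPM. Of 61 genes of the core spliceosome 9 fell and 4 rose (median 0.02), none steady, with 3 falls without the first siTfap4 library and 5 without the first siNeg library.

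Traffic through the nuclear pore had a large share of falls. Of 54 genes of nucleoporins and transport receptors 17 fell and 4 rose (31.5% and 7.41%; median -0.30), 4 falls steady. The falls were 5 without the first siTfap4 library and 7 without the first siNeg library, with no rise in either. Ran (chromosome 5, 129020069 to 129024323), the GTPase that gives transport its direction, was the most abundant steady fall among protein-coding genes whose ends are not uncertain, at 154 and 426 CPM in siTfap4 and 799 and 1528 CPM in siNeg (4.01-fold, adjusted p = 0.00705, and 0.0497 without the first siTfap4 library). Nup133, of the Y-shaped scaffold of the pore, held 12.9 and 18.3 CPM against 72.6 and 60.5 CPM. Kpna6, an importin alpha, was 2.904-fold lower, and Xpo5, which exports microRNA precursors, held 40.8 and 51.0 CPM against 95.1 and 128 CPM.

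**Figure D4:**
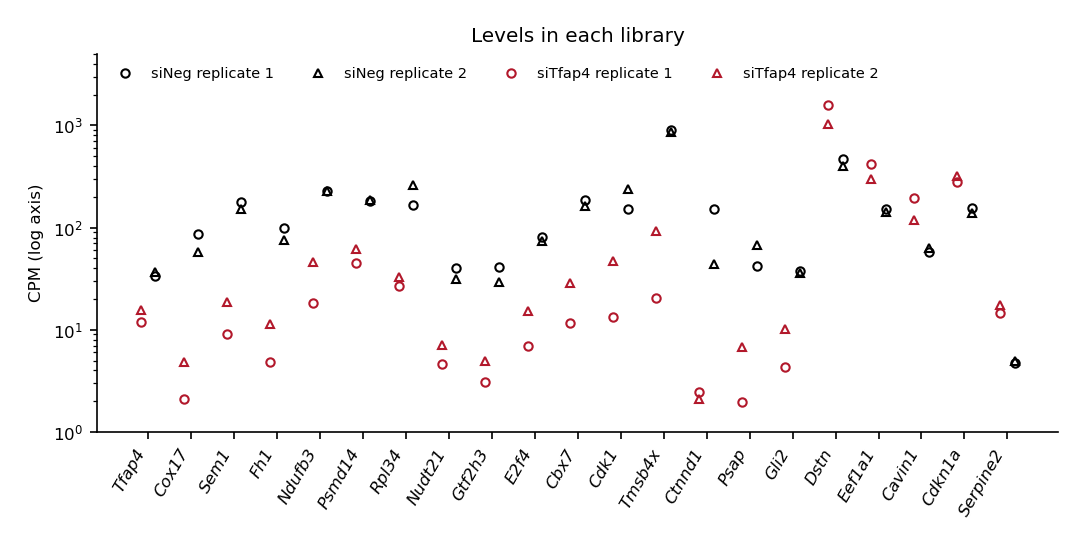
CPM (log axis) of genes from the functions described, in siNeg replicates 1 and 2 (black circle and triangle) and siTfap4 replicates 1 and 2 (red circle and triangle). From Tfap4 to Gli2 both siTfap4 libraries lie under both siNeg libraries, and from Dstn to Serpine2 both lie above.

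Among chromatin genes, 9 of 33 Polycomb genes fell and 1 rose (median -0.22), with 4 falls without the first siTfap4 library and 5 without the first siNeg library. The steady one was Cbx7 (chromosome 15, 79915807 to 79971119; it overlaps a gene on the opposite strand), the main reader of trimethylated H3K27 in the Polycomb complex PRC1 of embryonic stem cells. It held 11.5 and 29.0 CPM in siTfap4 and 185 and 163 CPM in siNeg (8.56-fold, log2 -3.10, SE 0.37, adjusted p = 0.000415). Of 46 lysine methyltransferase genes and partners 7 fell and 2 rose, with 2 falls without the first siTfap4 library, 3 without the first siNeg library and 4 without the second siNeg library. Dpy30 (4.12-fold lower) and Wdr5 (92.99 and 125 CPM against 318 and 312 CPM) belong to the shared core of the H3K4 methyltransferases. Of the remodelling genes, the list named for SWI/SNF and ISWI had 5 falls and no rise in 34 genes. Falls were fewer without either siNeg library or the first siTfap4 library. Steady there were Smarcad1, a remodeller that is not a subunit of either complex, and Dpf2, at 2.75-fold and 2.88-fold. NuRD and Sin3 had 3 falls and 1 rise in 18, with 1 fall without the first siTfap4 library and Mta1 steady at 3.53-fold. Gadd45a, a stress gene that takes part in DNA demethylation, held 24.1 and 31.1 CPM against 121 and 93.4 CPM. Of 20 lysine demethylase genes 3 fell and none rose, with no fall left without either first library.

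The replication-dependent histone genes were the only list of at least 10 tested members with a rise and no fall. They are made in S phase, and most of their mRNA ends in a stem-loop instead of a poly(A) tail. Of 44 tested members 5 rose (median 0.77), and 18 have uncertain ends. None rose without the first siTfap4 library or without the first siNeg library, 1 without the second siNeg library and 3 without either siZic2 library, and the median was between 0.58 and 1.03 in the fits with 1 library left out. Hist2h2ac had the smallest p, at 13.3 and 7.39 CPM against 3.24 and 2.31 CPM (adjusted p = 0.0159, and 0.0538 to 0.172 without any 1 of the first siTfap4 and the 2 siNeg libraries). The median GC content of their last 300 bases was 52.8% against 43.0% over all genes, and how calls moved with GC content is given with the rises.

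Transcription factors other than those of pluripotency are described by family. Of 27 other helix-loop-helix factors and Id proteins 5 fell and 2 rose (median -0.09), with 3 falls and no rise without either first library. Hes1, a repressor known as a target of Notch, held 11.2 and 26.5 CPM in siTfap4 and 172 and 121 CPM in siNeg (7.76-fold). Among the Myc and Max network and its E-box partners 5 of 18 fell and none rose (median -0.37), with 1 fall without the first siTfap4 library and 3 without the first siNeg library. Usf1 was steady, at 0.62 and 0.35 CPM against 8.73 and 6.44 CPM, and overlaps another gene on its strand. Of 13 E2F and DP genes, which control entry into S phase, 5 fell and 2 rose (median 0.06), with fewer falls and fewer rises without either first library. E2f4 (chromosome 8, 105297663 to 105305370), mostly a repressor in quiescent cells, held 6.94 and 15.4 CPM against 81.2 and 73.8 CPM (6.93-fold, adjusted p = 0.000415), and its partner Tfdp1 held 12.03 and 18.6 CPM against 56.4 and 48.2 CPM. Of 21 forkhead genes 4 fell and none rose, with 2 falls without the first siNeg library, and Foxn2 (10.4 and 9.03 CPM against 32.0 and 29.7 CPM) and Foxd3 (5.86-fold lower) were steady. Of 341 Zfp zinc finger genes 31 fell (9.09%) and 9 rose (2.64%), both under the shares over all genes. The falls were 8 without the first siTfap4 library, 10 without the first siNeg library and 18 without either siZic2 library, and 20 without the second siNeg library. Zfp988 was 31.5-fold lower, at 0.74 and 2.34 CPM against 60.8 and 38.2 CPM.

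In the cell cycle, 8 of 31 genes of cyclin-dependent kinases and their inhibitors fell and 1 rose (median 0.02), with 1 fall without either first library. The steady fall was Cdk1, the kinase of mitotic entry, at 13.4 and 47.1 CPM in siTfap4 and 151 and 238 CPM in siNeg (6.42-fold). The rise was Cdkn1a, the inhibitor p21, at 282 and 317 CPM against 155 and 140 CPM (2.03-fold, adjusted p = 0.0126), which was named after its values were seen, because it was 1 of the 6 rises that passed the test without the first siTfap4 library. Its adjusted p was 0.0524 without the second siNeg library. Of 20 cyclin genes 6 fell and 2 rose, with 2 falls without the first siTfap4 library and 3 without the first siNeg library, and Ccnd1 held 80.7 and 106 CPM against 214 and 239 CPM. Of 19 genes of the anaphase-promoting complex 6 fell and 4 rose, with none in either direction without the first siTfap4 library or without the first siNeg library.

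DNA repair and checkpoint genes had 8 falls and no rise in 45 (median -0.32), 4 steady, and 4 falls were left without the first siTfap4 library. Of genes that act on broken DNA, Rad54l, a motor of recombination, held 10.5 and 14.1 CPM against 121 and 72.3 CPM. Bard1, the partner of Brca1, held 18.4 and 36.7 CPM against 111 and 105 CPM. Parp2, a poly(ADP-ribose) polymerase, was 3.56-fold lower. At the replication fork 12 of 55 genes fell, 4 of them steady, and 2 rose (median 0.01), with 4 falls without the first siTfap4 library and 7 without the first siNeg library. Dscc1, of an alternative clamp loader, was 6.65-fold lower, and Mcm4, of the helicase, held 38.8 and 33.3 CPM against 242 and 164 CPM. The 109 kinetochore, spindle and cohesin genes had 16 falls and 8 rises (median -0.07), with 6 falls without the first siTfap4 library and 7 without the first siNeg library, and Ncaph, a condensin subunit, and Bub1b, a spindle checkpoint kinase, were 5.14-fold and 2.96-fold lower.

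The cytoskeleton held changes in both directions. Of 58 actin and actin-binding genes 14 fell and 2 rose (median 0.03), and the falls were 2 without the first siTfap4 library and 4 without the first siNeg library. Tmsb4x (X chromosome, 167207093 to 167209315), thymosin beta 4, which holds actin monomers in reserve, was at 20.7 and 92.5 CPM in siTfap4 and 906 and 858 CPM in siNeg (15.6-fold, log2 -3.96, SE 0.56, adjusted p = 0.00106). Outside the list, Capzb, which caps the fast-growing end of filaments, held 82.7 and 113 CPM against 220 and 238 CPM (2.34-fold). Dstn, destrin (chromosome 2, 143915320 to 143943324), which takes filaments apart, rose to 1586 and 1040 CPM from 470 and 398 CPM (3.03-fold, adjusted p = 0.00227, and 0.0208 without the first siTfap4 library). The changes in actin regulators included opposite signs among abundant, steady members. Of 35 tubulin genes 4 rose and 4 fell (median 0.17), with none of either kind without either first library, and 0 falls without the second siNeg library and 7 without the second siTfap4 library. Tuba1c had the smallest p, at 2106 and 1271 CPM against 564 and 839 CPM (adjusted p = 0.0127, 0.137 without the first siTfap4 library and 0.0940 without the first siNeg library). Of 25 genes of intermediate filaments and the lamina 4 fell and 2 rose, with 2 falls without either first library. Vim, vimentin, held 94.98 and 92.97 CPM against 305 and 260 CPM, and Sun1, which links the lamina to the cytoskeleton, was 3.85-fold lower.

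At the cell surface 7 of 28 cadherin, catenin and plakophilin genes fell and 2 rose, with 2 falls without either first library, and 4 without the second siTfap4 library or either siZic2 library. Jup, plakoglobin, held 43.3 and 72.9 CPM in siTfap4 and 156 and 242 CPM in siNeg. Ctnnd1, p120 catenin, was 42.2-fold lower with siNeg libraries that lay apart (2.48 and 2.11 CPM against 151 and 43.7 CPM). Of 47 integrin, laminin and collagen genes 8 fell and 1 rose, with 4 falls without the first siTfap4 library and 3 without the first siNeg library. Lims1 and Fermt2, adaptors of integrin adhesions, were 3.42-fold and 3.32-fold lower. Of 24 genes of tight junctions 3 fell and 2 rose, with 1 fall without either first library or the second siNeg library, and cingulin, Cgn, was 3.92-fold lower.

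In membrane traffic 9 of 56 genes of COPI, COPII and the Arf GTPases fell and 3 rose (median -0.24). The falls were 1 without the first siTfap4 library, 5 without the first siNeg library and 14 without the second siTfap4 library. Arf4, which acts at the Golgi, held 33.1 and 23.1 CPM in siTfap4 and 148 and 118 CPM in siNeg, 1 of the steady falls in which replicate 2 was the lower siTfap4 library. Of 50 Rab genes 5 fell and 4 rose (median 0.20), with 2 falls without the first siTfap4 library, 3 without the first siNeg library and 9 without the second siTfap4 library, and Rab8b was 4.09-fold lower. Of 39 genes of the vacuolar ATPase and the lysosome 6 fell and 5 rose (median 0.18), with 2 and 0 without the first siTfap4 library and 3 and 0 without the first siNeg library. Psap (chromosome 10, 60277627 to 60302597), the precursor of the saposins that help to break down sphingolipids, held 1.98 and 6.8001 CPM against 42.6 and 67.9 CPM (12.5-fold, adjusted p = 0.000415).

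Autophagy genes split as well, with 4 falls and 5 rises in 32 (median 0.03). None of the rises was called without the first siTfap4 library or without the first siNeg library, and 2 were without the second siNeg library or either siWiz library. Of the falls, 3 were steady. Ulk1, the kinase that starts autophagosome formation, held 40.8 and 72.6 CPM against 173 and 174 CPM. The lipid transfer protein Atg2b was at 9.30 and 13.2 CPM against 49.3 and 50.5 CPM, and Nbr1, a cargo receptor, at 18.97 and 34.8 CPM against 95.3 and 90.8 CPM. In the mTOR pathway, which restrains Ulk1 when amino acids are plentiful, 6 of 40 genes fell and 2 rose, with 2 falls without the first siTfap4 library and 3 without the first siNeg library or either siZic2 library. The steady ones were Rragc (3.09-fold) and Rraga (3.70-fold), GTPases that bring mTOR to the lysosome. Of 24 amino acid transporter genes 6 fell and 1 rose, with 2 falls without the first siTfap4 library and 1 without the first siNeg library, and Slc7a3, a carrier of arginine and lysine, held 73.2 and 167 CPM against 434 and 380 CPM. In the other solute carriers 37 of 218 fell (16.97%) and 13 rose, with 12 falls without either first library.

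Among signalling genes the Hedgehog list had 5 falls and 1 rise in 16, 3 of the falls steady (median -0.65). These were 3 falls and no rise without either first library. Gli2, a transcription factor of the pathway, held 4.34 and 10.2 CPM in siTfap4 and 37.8 and 36.1 CPM in siNeg. Ptch1, a receptor of Hedgehog and itself a target of the pathway, held 57.4 and 93.3 CPM against 207 and 200 CPM. In both genes the siNeg libraries lay close together and the first siTfap4 library was the lower. Of 41 genes of the FGF and ERK pathway 12 fell, 3 of them steady, and 2 rose (median -0.34), with 3 falls without either first library and 7 without either siZic2 library. Map2k1, the kinase that activates ERK, was 4.79-fold lower, and Dusp6, which inactivates it and is induced by it, 11.7-fold. In the Notch list 2 of 21 genes fell and 1 rose, with 4 falls without the second siNeg library, and Maml1, a coactivator, was 8.31-fold lower. Of 89 phosphatase subunit genes 10 fell and 3 rose, 6 of the falls steady, and Ppp1cb, a catalytic subunit of phosphatase 1, held 33.5 and 75.3 CPM against 276 and 234 CPM. Lgr4, the R-spondin receptor that raises Wnt signalling, was 4.28-fold lower, at 16.4 and 13.4 CPM against 78.9 and 48.2 CPM.

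The rises that held in every fit with 1 library left out were few. Beside Dstn and Eef1a1 they were Serpine2, a secreted inhibitor of serine proteases (14.5 and 17.5 CPM against 4.74 and 4.90 CPM), Cavin1, which forms the coat of caveolae, and Snord89, a small nucleolar RNA. Cavin1 (chromosome 11, 100956733 to 100970887) held 193 and 118 CPM in siTfap4 and 57.1 and 63.3 CPM in siNeg (2.58-fold, adjusted p = 0.00450, and 0.0468 without the first siTfap4 library). Snord89 held 25.2 and 30.01 CPM against 7.98 and 5.57 CPM (4.06-fold). Small nucleolar RNAs carry no poly(A) tail when mature, and of 24 tested members of that list 1 rose and 1 fell, with a median of 0.92. The fall was not called with any siTfap4, siNeg or siZic2 library left out.

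Rises and falls were found at transcript ends of different base composition. The median GC content of the last 300 bases of the transcript was 50.3% in genes that rose, 39.3% in genes that fell and 43.1% in the others. With genes in 4 equal groups by this value, falls were 16.7%, 15.3%, 9.59% and 5.08% of genes from the lowest to the highest GC content, and rises were 1.15%, 2.10%, 4.18% and 9.54%. The median log2 difference went from -0.27 to 0.40. The siNeg libraries differed from each other along the same axis, with a median log2 difference of replicate 1 over replicate 2 of 0.27 in the lowest group and -0.23 in the highest. With an offset for GC content in each library, chosen after seeing the data, 1380 of the 1709 falls and 295 of the 621 rises were still called, and Tfap4 had a log2 difference of -1.08 (adjusted p = 0.0137). The part of base composition in the calls was not tested beyond this offset.

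**Figure D5:**
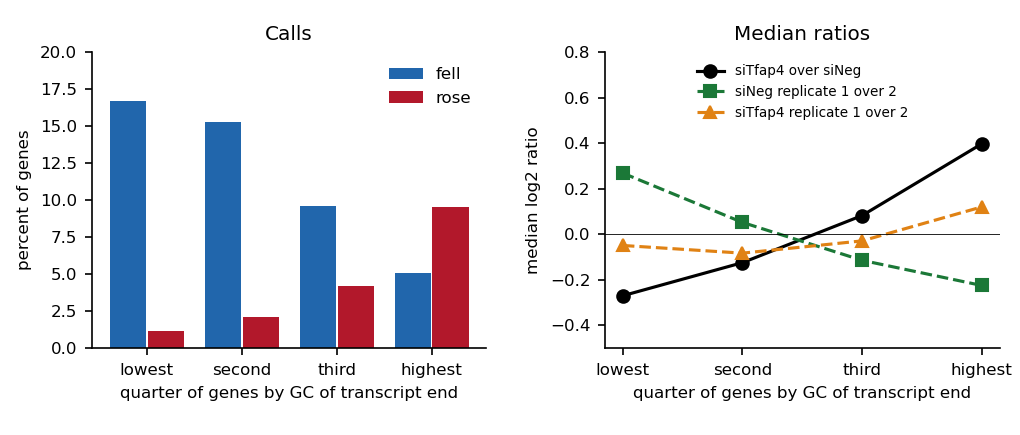
Genes in 4 groups by GC content of the last 300 bases of the transcript. Left, percent of genes that fell (blue) or rose (red): falls went from 16.7% to 5.08% and rises from 1.15% to 9.54%. Right, median log2 ratio of siTfap4 to siNeg (solid) and between the 2 replicates of siNeg and of siTfap4 (dashed).

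At the far end of the falls, 32 genes with a siNeg mean of at least 5 CPM were at least 16-fold lower. Of these 27 were protein-coding, 23 were steady and 6 have uncertain ends. In all 32 both siTfap4 libraries lay under the other 6 libraries, but these genes were chosen for their fall against siNeg. The share of all genes under all 6 was not counted. The siZic2 mean was more than 50% of the siNeg mean in 32 and the siWiz mean in 24, and these shares over all genes were not counted. By level, in the lowest of 4 equal groups by level 5.38% fell and 0.819% rose, in the third 16.96% and 5.93%, and in the highest 11.7% and 6.91%. Closely replicated falls of smaller size were Atp2a2, the calcium pump of the endoplasmic reticulum (98.2 and 109 CPM against 244 and 257 CPM), Ier2, an immediate early gene (25.3 and 25.8 CPM against 54.9 and 59.5 CPM), Rnf4, a ubiquitin ligase that reads SUMO chains (2.37-fold), and Trappc13, of a tethering complex at the Golgi (2.42-fold).

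Lists with no call by edgeR were those of fibroblast, trophectoderm and mesoderm markers and of 2C-like and germline genes. These 4 lists held 29 tested genes, of which 7 had an unadjusted p under 0.05, and DESeq2 called 0 of them. In the order given, the smallest p by edgeR was that of Pdgfrb (adjusted p = 0.230), Ascl2 (0.128), Eomes (0.704) and Taf7l (0.0591). Interferon and RNA sensing genes had 1 fall and 1 rise in 26, and neither was called without the first siNeg library. Imprinted genes had 1 fall in 24, and none without either first library or either siZic2 library. Of the named genes, Srebf1, Cbx7, Ccnd1, Manf, Arf4, Syvn1 and Gapdh overlap a gene on the opposite strand. The strand setting of the counting is not given in the sources used here, so reads of such pairs cannot be told apart.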

How the data were processed

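RNA was measured in 8 libraries, of which the 4 of siTfap4 and siNeg are compared. The authors deposited whole-number read counts per Ensembl gene, not normalised. Libraries were made with the QuantSeq 3' FWD kit from 500 ng of Trizol-extracted RNA, per the labels' protocols. Trim Galore and the build GRCm38 are named per the submitters' processing notes. The sources used here do not give the aligner, the program that counted, how strand was treated or whether molecular identifiers were counted.

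Of 55421 gene IDs, 55154 matched the GENCODE M21 annotation of GRCm38 and 267 did not. Genes passing filterByExpr (14647) were fitted over all 8 libraries with edgeR 4.0.16 in R 4.3.3 (TMM scaling, 1 mean per group, quasi-likelihood test, Benjamini-Hochberg adjustment over all genes tested, threshold 0.05). For each gene all 4 groups share 1 estimate of the spread, and the value common to all genes was a biological coefficient of variation of 22.2%. The groups that are not compared enter this estimate and were less spread. Of genes with a mean of at least 5 CPM, 7.78% were at least 2-fold apart between replicates in siTfap4 and 3.96% in siNeg. In siWiz these were 3.01% and in siZic2 0.725%. Reported p-values come from this model. An SE is that of the log2 difference. The fit was also run on simulated data, drawn with the spread that the fit itself had estimated. No outcome of that run is given or used here. The simulated counts held no shift by GC content or by replicate, so that run does not cover such shifts.

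A transcript end is called uncertain where at least 50% of the 50-mers of its last 300 bases occur in another gene. Named genes were Tfap4 and up to 8 steady genes in each direction with the smallest p, the highest level, or a 1.5-fold to 2.5-fold change with the smallest SE, among protein-coding genes of at least 5 CPM with an end that is not uncertain. To these came up to 3 steady members per list and direction, or the member with the smallest p, and the 4 promoter genes. The promoter genes were chosen by smallest p among protein-coding steady falls with CAGCTG, at least 5 CPM and an end that is not uncertain. Genes of chromosome 18 were also left out of that choice, a step that the written rule did not hold. Some genes and 1 list that the rule selects are not reported here. The members, lists and rule were chosen with earlier results of these data known. Alternatives were RLE and total scaling, filters, the compared groups alone, a replicate block, a 1.5-fold minimum, DESeq2 1.42.0, each library left out and a GC offset added after seeing the data. Library totals of 8326675 to 11395211 counts limit precision at low levels, and the values cover counting and replicate error only.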

Additional observations from a re-analysis of the deposited data

How the results depend on the processing

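The 1709 falls were between 1433 and 2096 under both other scalings, both other filters, DESeq2, the replicate block, the GC offset and the compared groups alone, and were 723 in the test against a minimum of 1.5-fold. The 621 rises were 266 with the siTfap4 and siNeg libraries alone, 22 against the 1.5-fold minimum and between 432 and 908 under both other scalings, both other filters, DESeq2 and the GC offset. With 1 library left out, the falls ranged from 498 to 2179 and the rises from 6 to 1143. With the replicate block, 1147 rose and 2096 fell. The numbers of the titles are not said to mark a shared culture or day, and same-numbered siNeg and siTfap4 libraries deviated from their group means with a correlation of 0.13 over 10133 genes. Over the 6 pairs of groups this correlation was between -0.10 (siTfap4 with siWiz) and 0.48 (siNeg with siWiz). Of the 165 genes that the naming rule selects, 11 lost their call against the 1.5-fold minimum (among them Ier2, adjusted p = 0.0506), 3 with the GC offset and 15 without siTfap4 replicate 1. The log2 difference of Eomes was -0.19, and 0.0145 with the GC offset, and it was called in neither. The call of Taf7l was gained in several fits, with an adjusted p of 0.0180 with no filter on low counts. The causes were not tested.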
